A study of Mus musculus with 6 samples.

Results

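The genes described here encode the enzymes that attach glutathione, glucuronic acid or sulfate to other molecules: the glutathione S-transferases (GST), the UDP-glucuronosyltransferases (UGT) and the cytosolic sulfotransferases (SULT). They were taken by name from the protein-coding genes of the deposited files, by the symbol stems Gst (classes a, k, m, o, p and t), Mgst, Ugt (families 1 to 3) and Sult, which gave 51 of the 25805 listed genes. Of the 51, 24 were GST genes (21 cytosolic or kappa, 3 microsomal), 16 were UGT genes (7 of the UGT1 locus, 9 of UGT2 and UGT3) and 11 were SULT genes. The study sequenced RNA from mouse kidneys after ischaemia-reperfusion injury (IRI), in which blood flow is stopped and restored, in 3 libraries of wild-type (WT) mice and 3 labelled CXCR2 knockout. Every kidney had been injured, so the study's WT libraries are injured controls and uninjured tissue was not analysed here. The sources used here do not give strain, age, sex, the time after injury, the part of the gene deleted or whether each library came from a separate animal. The p-values therefore measure the spread between these libraries, which may be technical.

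Conjugation makes reactive or fat-soluble compounds water-soluble, so that transporters can move them into urine or bile. The proximal tubule is the main site of this work in the kidney. Cytosolic GSTs add glutathione to electrophiles, among them the lipid aldehydes that form when oxygen returns to ischaemic tissue, and the alpha class also reduces lipid hydroperoxides. UGTs sit in the endoplasmic reticulum and use UDP-glucuronic acid or related sugars, and SULTs use the sulfate donor PAPS. Several alpha and mu GST genes are well-known targets of NRF2, the transcription factor that answers oxidative stress through antioxidant response elements.

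Only in the alpha class did every gene have all its labelled-knockout values below all its WT values. The sequence before the start of each of its 4 genes is therefore shown where RefSeq's table (GRCm38.p6) holds it. Each run is the 250 bases upstream of the RefSeq start, read in the direction of transcription. The gene as counted can start elsewhere. Gsta2 is listed with the counts from 78331018 to 78355788, so its window lies inside the counted gene. Gsta1 is listed from 78230656, which falls within its window. In Gsta1 and Gsta2 capitals mark their longest shared run, and in Gsta3 they mark a match to TGACNNNGC, the core of the antioxidant response element.
Gsta1, chr9:78230419-78230668, plus strand: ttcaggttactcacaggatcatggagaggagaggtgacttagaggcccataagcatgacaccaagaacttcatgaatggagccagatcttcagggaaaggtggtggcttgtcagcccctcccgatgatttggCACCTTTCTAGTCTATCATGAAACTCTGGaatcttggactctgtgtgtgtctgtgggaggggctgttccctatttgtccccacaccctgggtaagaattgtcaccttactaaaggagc
Gsta2, chr9:78347146-78347395, minus strand: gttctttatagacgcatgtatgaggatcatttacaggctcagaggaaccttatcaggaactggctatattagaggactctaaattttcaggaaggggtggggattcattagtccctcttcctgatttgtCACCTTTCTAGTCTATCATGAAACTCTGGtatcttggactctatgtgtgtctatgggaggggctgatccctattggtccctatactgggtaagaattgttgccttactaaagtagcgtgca
Gsta3, chr1:21240335-21240584, plus strand: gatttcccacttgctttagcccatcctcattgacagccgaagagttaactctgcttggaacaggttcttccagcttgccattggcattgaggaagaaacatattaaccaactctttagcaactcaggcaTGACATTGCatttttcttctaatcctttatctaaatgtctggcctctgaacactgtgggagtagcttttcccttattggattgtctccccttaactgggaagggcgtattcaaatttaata
The shared run of Gsta1 and Gsta2 is 29 bases long and begins 118 and 121 bases before their starts. Over the whole window the pair are identical at 71.4% of aligned positions, while Gsta3 matches Gsta1 at 54.3% and Gsta2 at 53.8%. A search of both strands found TGACNNNGC in 4 of the 46 members with a window, Gsta3, Gstm5, Gstm7 and Mgst1, which is 8.7% of them, against 11.5% of the 27025 genes in the table. The match in Gsta3 begins 121 bases before the start. GCGTG, the core bound by the aryl hydrocarbon receptor, was in 9 of the 46 (19.6%), Gsta2 among them, against 30.9% of all genes. In Gstm5 a match of each motif overlaps the other. Matches of either motif are a description of these letters only. Gsta4, Gstt2, Sult4a1, Ugt1a6b and Ugt3a2 had no entry.

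Depth was 15518083 to 20356601 reads per library, recovered from the deposited normalized counts. The targeted gene, Cxcr2, had 15.9, 88.8 and 56.9 normalized counts in WT and 98.0, 36.8 and 56.6 in labelled knockout, so it was no lower there (log2 ratio 0.43, SE 0.64, limma adjusted p = 0.841), and every direction below is between labels. These values are sums over the gene, and reads outside a deleted part check nothing. Markers of the proximal tubule, such as Slc5a2 and Cubn, were present in every library, none of the 15 at 0, with summed levels of 275877 to 357061 in WT and 293928 to 316580 in labelled knockout. Labelled-knockout library 1 stood apart from the other 5 on the first principal component (86.0 against -27.3 to -4.16), and library 3 was at the end of the second (-57.4 against -12.8 to 33.6 in the others). Library 1 also held far more RNA of fat cells: the 10 fat cell markers summed to 62270 there, to 3330 and 400 in the other 2 so labelled, and to 1065 to 3677 in WT. Of these, Adipoq was at 0 in WT libraries 2 and 3 and in labelled-knockout library 3. Summed markers of other cells were also highest in library 1. Those of neutrophils reached 4681 there and 434 to 1587 elsewhere, and those of erythrocytes 13550 against 761 to 2973. Those of hepatocytes reached 2857 against 599 to 1153, and 1951 of the 2857 was Serpina1a. Alb, Apoa1 and Ahsg were also highest in library 1, at 74.6, 23.4 and 6.68, while Apoa2, Ttr and Cyp3a11 were not. Markers of the thick limb and distal tubule summed to 88964 in library 1, 23868 in library 3 and 43420 to 81945 in WT. Those of the collecting duct summed to 27753, 4270 and 12435 to 18656 in the same order. For both lists labelled-knockout library 1 was the highest of all and library 3 the lowest.

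Genotypes were compared across the whole table, as log2 ratios of labelled knockout to WT, with limma on log2(normalized count + 1), over the 21721 genes with a mean of at least 1. None of the 50 members tested passed an adjusted p of 0.05, where 0.00460% of all genes did. Their smallest adjusted p was 0.377. At an unadjusted p under 0.05, 8 members (16%) had lower values in the libraries labelled knockout, against 6.14% of all genes, and 1 (2%) had higher values, against 3.94% (10.1% of all genes in both directions). Groups did not overlap for 11 members: 9 were lower (18%, against 9.43% of all genes) and 2 higher (4%, against 8.27%). The 8 members with lower values at an unadjusted p under 0.05 became 3 without WT library 1, 3 without WT library 2 and 4 without WT library 3, and the 1 with higher values became 2 without WT library 1 or labelled-knockout library 1 or 3, and 0 without WT library 2. Values were lower in 32 members (of all genes, 50.1%) and higher in 18 (49.9%). All 4 alpha GSTs were among the 8, leaving 4 of the 46 other members. The median log2 ratio was -0.20 over the 50 members, -1.21 over the alpha class, -0.14 over the other 46 and -0.001 over all genes tested. The alpha class was singled out after its values were seen. DESeq2 on the recovered reads called 2 members, Gsta2 and Gsta4, both lower, in a comparison in which it called 1.30% of genes lower and 0.647% higher (1.95% in all). The edgeR quasi-likelihood test called none of them (0.00628% of all genes).

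**Figure D1:**
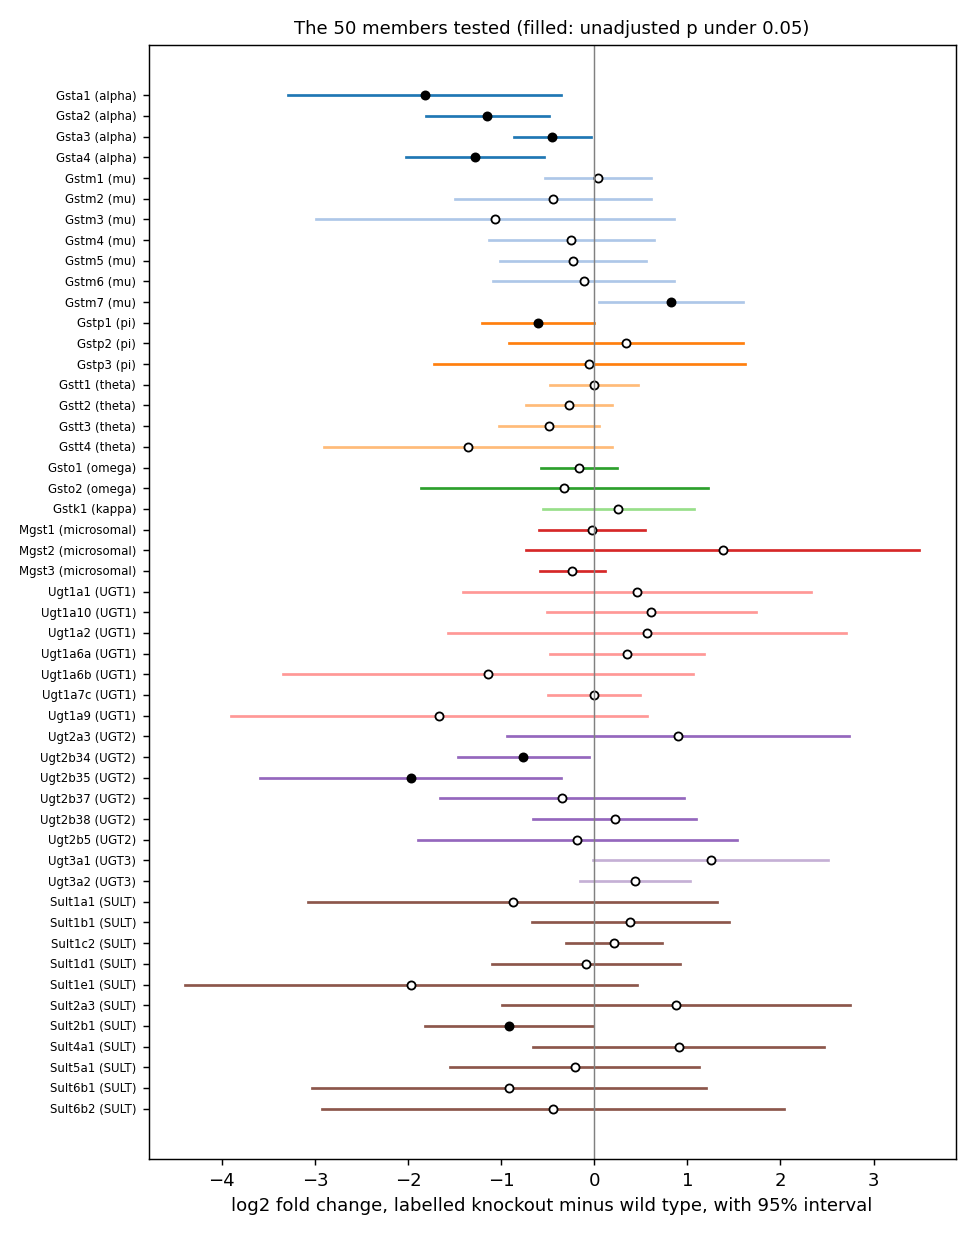
Log2 ratio of labelled knockout to wild type (x axis, log2 scale) for each of the 50 members tested (y axis, class in parentheses), with 95% intervals from limma as lines coloured by class; filled points have an unadjusted p under 0.05. The 4 alpha-class genes at the top all lie left of 0, while most other intervals span it.

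The alpha class binds bulky electrophiles and lipid peroxidation products. Gsta2, its most abundant member per base of gene length, stood at 10304, 6406 and 5858 normalized counts in WT libraries 1, 2 and 3 and at 2268, 3824 and 4086 in the same order of labelled knockout. Every labelled-knockout library lay below every WT library, with library 1 the lowest. The means were 7523 ± 2424 and 3393 ± 983 (SD, n = 3), 2.22-fold lower, a log2 ratio of -1.15 (SE 0.29, 95% interval -1.81 to -0.49, limma unadjusted p = 0.00355, adjusted p = 0.377, DESeq2 adjusted p = 0.027).

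Gsta4, the enzyme with the highest known activity toward the lipid aldehyde 4-hydroxynonenal, stood at 1295, 1140 and 902 in WT and 520, 666 and 268 in labelled knockout. The groups did not overlap, and labelled-knockout library 3 rather than library 1 was the lowest. Its log2 ratio was -1.28 (SE 0.32, 95% interval -2.02 to -0.54, limma unadjusted p = 0.00394, adjusted p = 0.377, DESeq2 adjusted p = 0.0374), with means 2.30-fold apart. No stretch of at least 100 bases at 95% identity is shared by Gsta4 and another gene's transcript, unlike Gsta1 and Gsta2.

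Gsta1, a close relative of Gsta2, stood at 393, 873 and 675 in WT and 64.6, 343 and 233 in labelled knockout. These groups did not overlap either, and the spread within each was wider, from 64.6 to 343 in labelled knockout. The log2 ratio was -1.82 (SE 0.62, limma unadjusted p = 0.0219, adjusted p = 0.434), and -1.12 without labelled-knockout library 1. Gsta3, which is known for aflatoxin detoxification in mice, differed least, at 2156, 1681 and 1677 against 1430, 1504 and 1108. Its log2 ratio was -0.45 (SE 0.18, limma unadjusted p = 0.037, adjusted p = 0.467). The gene is on chromosome 1 from 21240589 to 21265661, apart from Gsta4, Gsta1 and Gsta2, which lie together on chromosome 9 between 78182774 and 78355788.

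In the chromosome 9 group the counts of Gsta1 and Gsta2 are uncertain by themselves. Gsta1 is 99.5% identical over 874 bases to Gm3776, a protein-coding neighbour that the member rule does not take, and Gsta2 is 97.2% identical to Gsta1 over 870 bases. How reads with several matches were treated is not stated. Gm3776 stood at 165, 340 and 144 in WT and 2.23, 74.5 and 52.5 in labelled knockout. The sum of Gsta1, Gsta2 and Gm3776 does not depend on how reads were shared among them. Reads dropped for having several matches, or given to other genes, would change it. Gsta1 shares such stretches with 3 other genes and Gsta2 with 4. The sum was 10861, 7620 and 6677 in WT and 2335, 4242 and 4371 in labelled knockout, 2.30-fold lower, again without overlap. Without labelled-knockout library 1 the median of the 4 alpha genes was -1.0, without library 3 it was -1.10, and leaving out any 1 library kept it between -1.41 and -1.0. Relative to the WT mean, the class median was 0.24, -0.03 and -0.20 in WT and -1.38, -0.78 and -1.12 for labelled knockout.

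**Figure D2:**
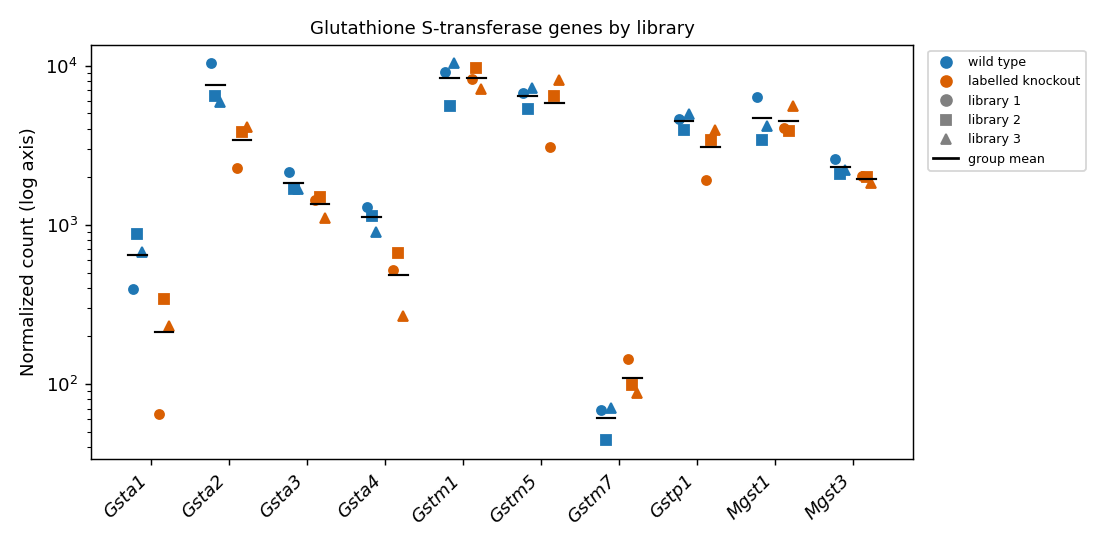
Normalized counts (y axis, log scale) of 10 GST genes (x axis) in each library; blue is wild type, orange labelled knockout, symbols give the library number and bars the group means. The orange points of Gsta1 to Gsta4 lie below all blue points of the same gene, those of Gstm7 above, and those of Gstm1 and Gstm5 among them.

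Markers of the proximal tubule had no such lower values. Of the 15, 10 had higher values in labelled knockout and 5 lower (median 0.58). At a limma unadjusted p under 0.05, 4 were higher, where 3.94% of all genes were, and none lower. None passed limma's adjusted threshold. Their median relative to the WT mean was 1.16, 0.44 and -0.01 for the labelled knockout, and 0.06 in the comparison without library 1. The 7 markers of the straight segment had a median of 0.53, with 6 higher. Endothelial markers had lower values, none past the adjusted threshold (median -0.86, 9 of 10 lower, none at 0, summed 13214 to 22352 in WT and 5609 to 12892 in labelled knockout), and so had those of macrophages (median -0.50, 7 of 9 lower, none at 0, summed 5060 to 8969 and 3755 to 8395). Genes of tubular injury had a median of -0.38, with 7 of 10 lower and none at 0. They summed to 386288 to 508825 in WT and to 125751, 375432 and 686161 in labelled-knockout libraries 1 to 3. Their medians relative to the WT mean were -0.37, -0.32 and -0.10 in those libraries. Havcr1 stood at 1321 in labelled-knockout library 1 and at 21442 to 54545 elsewhere. Sox9 stood at 1253 there, at 336 and 1297 in labelled-knockout libraries 2 and 3, and at 293 to 776 in WT. Havcr1 and Sox9 were picked with their values known. Among the same 10 genes Lcn2, a secreted marker of tubular damage, stood at 14679, 27779 and 18445 in WT and 4180, 7747 and 11101 in labelled knockout (log2 ratio -1.46, SE 0.38, limma adjusted p = 0.383, DESeq2 adjusted p = 0.0208). The macrophage marker Mrc1 had a log2 ratio of -1.65 (SE 0.39, limma adjusted p = 0.373, DESeq2 adjusted p = 0.0135), and for neither gene did the groups overlap; both were picked with their values known. The part of these 3 lists in the alpha-class values was not tested. In whole kidney RNA, fewer cells of a type and less RNA per cell cannot be told apart.

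Among the mu class, which handles epoxides and quinones, the leading genes had similar values in both groups. Gstm1 had the highest mean of the whole set per base of length over the 6 libraries. In WT alone, Gsta2 (6391 per kilobase) and Gstp1 (5938) were above it (5638). Gstm1 stood at 9081, 5530 and 10301 in WT and 8189, 9635 and 7118 in labelled knockout. These ranges overlap throughout, and the log2 ratio was 0.039 (SE 0.25, 95% interval -0.53 to 0.61, limma adjusted p = 0.967). Gstm5 stood at 6684, 5327 and 7194 against 3057, 6426 and 8077, with labelled-knockout library 1 lowest of all and library 3 highest. Its log2 ratio was -0.23 (SE 0.34, limma adjusted p = 0.839). Leaving out library 1 gave 0.18, and leaving out library 3 gave -0.52.

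Gstm7 was the member with higher values at an unadjusted p under 0.05. It stood at 68.5, 44.4 and 70.5 in WT and 143, 97.8 and 87.5 in labelled knockout, without overlap, on 48 to 128 reads a library. The log2 ratio was 0.82 (SE 0.34, limma unadjusted p = 0.0401, adjusted p = 0.474), and 0.62 without labelled-knockout library 1. Gstm7 and the other mu genes lie in 1 cluster on chromosome 3. The other mu genes, Gstm2, Gstm3, Gstm4 and Gstm6, had log2 ratios of -1.07 to -0.12, the lowest that of Gstm3, which had at most 4.84 normalized counts in a library.

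Gstp1, the pi-class enzyme that also binds and restrains the stress kinase JNK, stood at 4629, 3926 and 4931 in WT and 1906, 3413 and 3918 in labelled knockout. The highest labelled-knockout value lay just under the lowest WT value, and library 1 was far below the rest. Its log2 ratio of -0.60 (SE 0.27, 95% interval -1.21 to -0.0005, limma unadjusted p = 0.0498, adjusted p = 0.493) was -0.29 without library 1. Gstp1 and Gstp2 are 98.2% identical over 707 bases; their sum was 4515 ± 514 in WT and 3104 ± 1052 in labelled knockout (SD, n = 3). The 4 theta genes, whose enzymes act on small halogenated compounds, also all had negative log2 ratios, from -1.35 to -0.004 (median -0.38). None of the theta genes had a limma unadjusted p under 0.05. Gstt4, the lowest of them, had at most 2.51 normalized counts in a library. Gsto1 of the omega class, which reduces dehydroascorbate, had a log2 ratio of -0.16, and Gstk1, the mitochondrial and peroxisomal kappa enzyme, one of 0.26. Gstk1 stood at 988 in labelled-knockout library 1 and at 344 to 517 elsewhere, and its log2 ratio was -0.16 without that library.

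The make-up of the GST transcripts can be compared between genes only per length, here as normalized counts per kilobase of the gene length in the files. Alpha-class genes held 33.1%, 31.7% and 23.0% of the summed cytosolic and kappa GST level in WT libraries 1 to 3 and 16.1%, 18.4% and 17.9% in labelled knockout. The mu class held 37.7%, 35.3% and 44.5% in WT and 50.2%, 50.3% and 49.4% in labelled knockout. In both cases the groups did not overlap, and the 3 labelled-knockout libraries were close to one another (17.5% ± 1.2 and 49.9% ± 0.5, SD, n = 3). The summed level itself was 32241, 24098 and 29531 per kilobase in WT and 16942, 24372 and 23416 in labelled knockout, which overlap. Shares of 1 total are bound to each other, so a larger mu share does not show a higher mu level. Gsta2 alone accounted for 22.2% ± 5.2 of the total in WT and 13.2% ± 1.7 in labelled knockout.

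**Figure D3:**
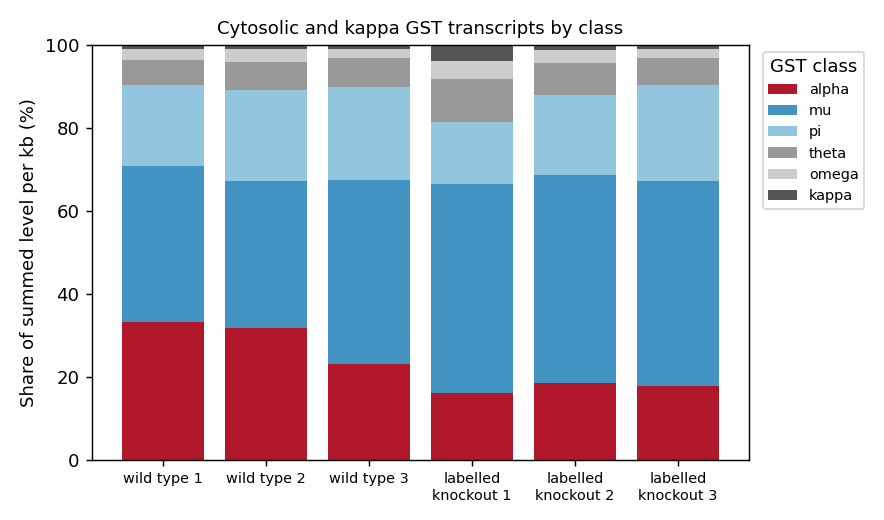
Share of the summed cytosolic and kappa GST level per kilobase (y axis, %) held by each class in each of the 6 libraries (x axis). The alpha share is 23.0% to 33.1% in the wild-type libraries and 16.1% to 18.4% in those labelled knockout.

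The microsomal enzymes are membrane proteins of another fold that share the name. Mgst1, a peroxide-reducing enzyme, stood at 6342, 3428 and 4190 in WT and 4036, 3873 and 5548 in labelled knockout, which overlap (log2 ratio -0.024, SE 0.25, limma adjusted p = 0.981). Mgst3 stood at 2605, 2072 and 2221 against 2012, 2002 and 1830. Here the labelled-knockout values were all below those of WT, by little: the log2 ratio was -0.23 (SE 0.15, limma unadjusted p = 0.164). Mgst2, which can make leukotriene C4, had 12.5 normalized counts or fewer in every library, and its log2 ratio of 1.38 (SE 0.93) rests on 15 reads or fewer per library.

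UGT1 enzymes conjugate bilirubin and many drugs, and their genes share the last exons of 1 locus on chromosome 1, so the split of reads among them is uncertain. Of the 7, 5 had higher and 2 lower values (median 0.35), and none had an unadjusted p under 0.05. Without labelled-knockout library 1 they were 3 and 4, with a median of -0.31. Ugt1a7c held most of the locus, at 2989, 1919 and 2788 in WT and 2330, 2224 and 3088 in labelled knockout. Its log2 ratio was under 0.001 (SE 0.22, 95% interval -0.49 to 0.49, limma adjusted p = 1.00). The sum over the 7 genes was 2756 ± 647 in WT and 2814 ± 460 in labelled knockout (SD, n = 3). That sum does not depend on the split among the 7, but reads dropped or given to other genes would change it. Ugt1a1, for example, is 97.8% identical over 1441 bases to Ugt1a5, which is not among the 7. Ugt1a6a, an enzyme for small phenols, stood at 76.1, 44.4 and 52.3 against 93.6, 54.2 and 73.1 (log2 ratio 0.35, SE 0.36, limma adjusted p = 0.759), and 0.16 without that library. Ugt1a2 stood at 87.8, 25.9 and 20.5 against 212, 36.8 and 19.6, and its log2 ratio of 0.56 became -0.41 without labelled-knockout library 1.

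UGT2 genes, which lie on chromosome 5 and whose enzymes act on steroids, bile acids and drugs, showed no common direction: 2 of the 6 tested had higher and 4 lower values (median -0.26), and 4 and 2 without labelled-knockout library 1 (median 0.23). Ugt2b38, their highest per base of length, stood at 8055, 2936 and 3802 in WT and 4165, 4782 and 7101 in labelled knockout. WT library 1 was above all others and WT library 2 below, so the groups overlap (log2 ratio 0.22, SE 0.38, limma adjusted p = 0.868; 0.38 without labelled-knockout library 1 and -0.0056 without library 3). Ugt2b38 and Ugt2b5 are 95.5% identical over 1861 bases, and their sum was 5020 ± 2814 and 5428 ± 1612 (SD, n = 3). Ugt2b34 stood at 858, 353 and 555 in WT and 388, 309 and 287 in labelled knockout. WT library 2 lay within the labelled-knockout range, and the log2 ratio was -0.76 (SE 0.31, limma unadjusted p = 0.0373, adjusted p = 0.467). Ugt2b35 was counted in 6, 4 and 1 reads in WT and in none of the labelled-knockout libraries. Its unadjusted p of 0.0223 (limma adjusted p = 0.435) rests on those few reads, and no fold is given. Ugt2b1 had 2 reads in all and was not tested.

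The UGT3 pair, Ugt3a1 and Ugt3a2, lie side by side on chromosome 15 and use sugars other than glucuronic acid. Ugt3a1 stood at 590, 402 and 513 in WT and 2971, 738 and 754 in labelled knockout. All labelled-knockout values were above those of WT, and library 1 was far above the other libraries. The log2 ratio was 1.25 (SE 0.53, 95% interval -0.0084 to 2.52, limma unadjusted p = 0.0512, adjusted p = 0.494), and 0.59 without library 1. Ugt3a2 was as high as Ugt2b38 per base of length in the mean over the 6 libraries. Ugt3a2 stood at 8157, 5455 and 7655 against 13427, 7447 and 8463, with library 1 highest again and the groups overlapping. Its log2 ratio was 0.44 (SE 0.26, limma adjusted p = 0.59), and 0.18 without library 1. Markers of fat cells, neutrophils, erythrocytes, hepatocytes, thick limb and distal tubule, and collecting duct were also highest in labelled-knockout library 1 by their sums. By their median those of the proximal tubule were highest there too (1.16), but not by their sum. That sum was 304828 in labelled-knockout library 1, 316580 in library 3 and 275877 to 357061 in WT. The part of all these in the Ugt3a1 value was not tested.

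Sulfotransferases were dominated by Sult1d1, a mouse enzyme for catecholamines and eicosanoids, which held 84.6% ± 5.5 of the summed SULT level per kilobase in WT and 83.4% ± 6.5 in labelled knockout. It stood at 5263, 8248 and 10248 in WT and 13425, 4255 and 6522 in labelled knockout, with the highest and the lowest value in the same group (log2 ratio -0.085, SE 0.43, limma adjusted p = 0.961; -0.54 without library 1). Sult1c2 stood at 810, 494 and 564 against 682, 852 and 601 (log2 ratio 0.21, SE 0.23, limma adjusted p = 0.771). Sult1a1, the main phenol sulfotransferase, ranged from 36.0 to 490 within labelled knockout and from 134 to 328 in WT. Library 1 was the highest of the 6 and libraries 2 and 3 the lowest, so the log2 ratio of -0.88 (SE 0.93, limma adjusted p = 0.767) was -1.98 without library 1 and -0.11 without library 3.

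Sult2b1, which sulfates cholesterol, stood at 58.5, 79.6 and 64.8 in WT and 22.3, 49.4 and 39.1 in labelled knockout. The groups did not overlap (log2 ratio -0.92, SE 0.40, limma unadjusted p = 0.0469, adjusted p = 0.488), and the value was -0.60 without labelled-knockout library 1. Sult1e1, the estrogen sulfotransferase, had 45.3 normalized counts or fewer, and its log2 ratio of -1.97 had an SE of 1.06. Of the 51 members, 11 had a mean under 10 normalized counts, where the test can show little, and 14 had a mean of at least 1000. The 27 tested members not among the family leaders or at an unadjusted p under 0.05 (of which Gstk1, Gsto1, Gstm3, Gstt4 and Sult1e1 were named above with their values known) had log2 ratios from -1.97 to 0.91, and none had an unadjusted p below 0.0716.

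**Figure D4:**
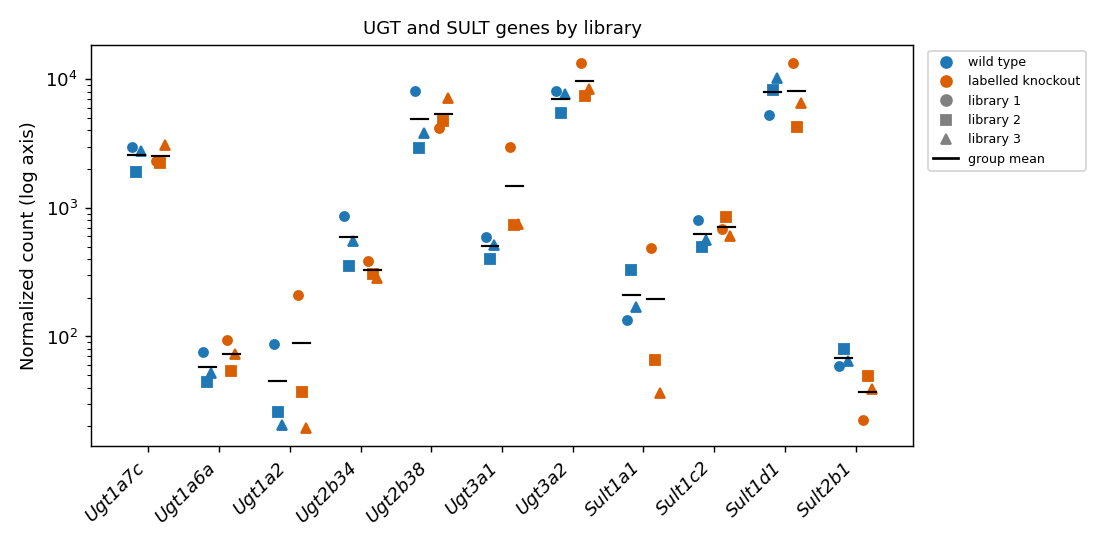
Normalized counts (y axis, log scale) of 7 UGT and 4 SULT genes (x axis) in each library; colours, symbols and bars as in the plot of GST genes. Ugt3a1 is higher and Sult2b1 lower in every labelled-knockout library, while the points of Ugt1a7c and Sult1d1 are mixed.

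The genes around conjugation were read from lists grouped by function, none of which had a member past limma's adjusted threshold. Of the 12 genes of glutathione synthesis and recycling, 7 had higher and 5 lower values (median 0.13). At a limma unadjusted p under 0.05, 2 were higher, where 3.94% of all genes were, and none lower. Gclc, the catalytic subunit of the rate-limiting enzyme, stood at 5241, 6025 and 6035 in WT and 9133, 7222 and 8978 in labelled knockout, without overlap (log2 ratio 0.55, SE 0.17, limma adjusted p = 0.391). In each labelled-knockout library Gclc was above, and each alpha-class gene below, all of its WT values. Gclm, the modifier subunit of the same enzyme, had a log2 ratio of -0.013 (0.32 without labelled-knockout library 1), and Nqo1, another NRF2 target, one of -0.83 (SE 0.31, limma unadjusted p = 0.0254), which was -0.44 without it. Gclm and Nqo1 were picked with their values known. In the mercapturate pathway, which trims and acetylates glutathione conjugates, 6 of 12 were higher and 6 lower, with Kyat3 at 0.93, Nat8f5 at -0.85 and the N-acetyltransferase Nat8 at -0.38 the smallest in p. Kyat3 was at 0.55 and Nat8f5 at -0.46 without labelled-knockout library 1.

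The lists for supply of the other donors held members that went both ways. The 8 genes of UDP-glucuronate supply had a median of -0.02 and no unadjusted p under 0.05, with Ugdh, which makes UDP-glucuronic acid, at -0.39 (-0.21 without labelled-knockout library 1). The 9 genes of sulfate and PAPS supply had a median of -0.01, with 4 higher and 5 lower, while their summed normalized counts were 19380, 12850 and 18778 in WT and 26289, 23729 and 27634 in labelled knockout, without overlap. Among them Slc13a1, the brush-border sodium-sulfate cotransporter, stood at 8577, 3183 and 7382 in WT and 11931, 13274 and 16747 in labelled knockout, without overlap. This gene was the largest single part of the sum in every library, so the sums largely follow it. Its log2 ratio was 1.24 (SE 0.36, limma unadjusted p = 0.00842, adjusted p = 0.391, DESeq2 adjusted p = 0.0707), and 1.35 without library 1.

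Enzymes listed as acting before conjugation, most of them oxidases, had a median of -0.06, with 10 of 23 higher and 13 lower. The list also holds the hydrolase Ephx1, the reductases Nqo1 and Cbr1, and Cyp27b1, an enzyme of vitamin D. At a limma unadjusted p under 0.05, 5 of the 23 were lower and 1 higher, where 6.14% and 3.94% of all genes were. DESeq2 called 2 lower, where it called 1.30% of all genes lower. Cyp1b1, an oestrogen and dioxin-inducible hydroxylase, stood at 1051, 1947 and 562 in WT and 333, 311 and 203 in labelled knockout (log2 ratio -1.92, SE 0.43, limma adjusted p = 0.374, DESeq2 adjusted p = 0.000894). Cyp27b1, which activates vitamin D, stood at 715, 675 and 631 against 296, 31.9 and 139 (log2 ratio -2.60, SE 0.73, limma adjusted p = 0.391, DESeq2 adjusted p = 0.0196). Neither gene's groups overlap. The carbonyl reductase Cbr1 had a log2 ratio of -0.66 (SE 0.22).

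The 10 transporters listed as exporting conjugates or other compounds had a median of 0.09, with 6 higher and 4 lower. Abcb1b (0.79) and Abcc6 (1.11) were higher at a limma unadjusted p under 0.05, where 3.94% of all genes were. Abcc3, a basolateral exporter of glucuronides, was at -0.75. What each of the 10 carries in these kidneys was not tested. The 5 listed hydrolases of glucuronide or sulfate bonds, Gusb, Arsa, Arsb, Arsg and Ids, had a median of 0.21. Whether they act on conjugates made by the members was not tested. None had a limma unadjusted p under 0.05, with Arsb (0.60), Gusb (-0.26) and Arsg (0.31) the smallest in p. Without labelled-knockout library 1, Arsb was at 0.33 and Gusb at -0.13. Among the 16 regulators, 10 had higher and 6 lower values (median 0.11). Rxra, a nuclear receptor that pairs with the receptors for xenobiotics and lipids, stood at 2168, 1770 and 2241 in WT and 3344, 2742 and 2603 in labelled knockout, without overlap (log2 ratio 0.49, SE 0.17, limma unadjusted p = 0.0194, adjusted p = 0.429). Hnf4a had a log2 ratio of 0.37, and Nfe2l2, which encodes NRF2 and was picked with its value known, had a log2 ratio of -0.17 (SE 0.17), and -0.30 without labelled-knockout library 1. Of 18 related enzymes outside the rule, 8 were higher and 10 lower (median -0.14), with the sigma-class GST Hpgds at -1.04, Chst3 at 0.80 and Chst2 at -1.06. The rates of conjugation were not measured, since all values are transcript levels.

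**Figure D5:**
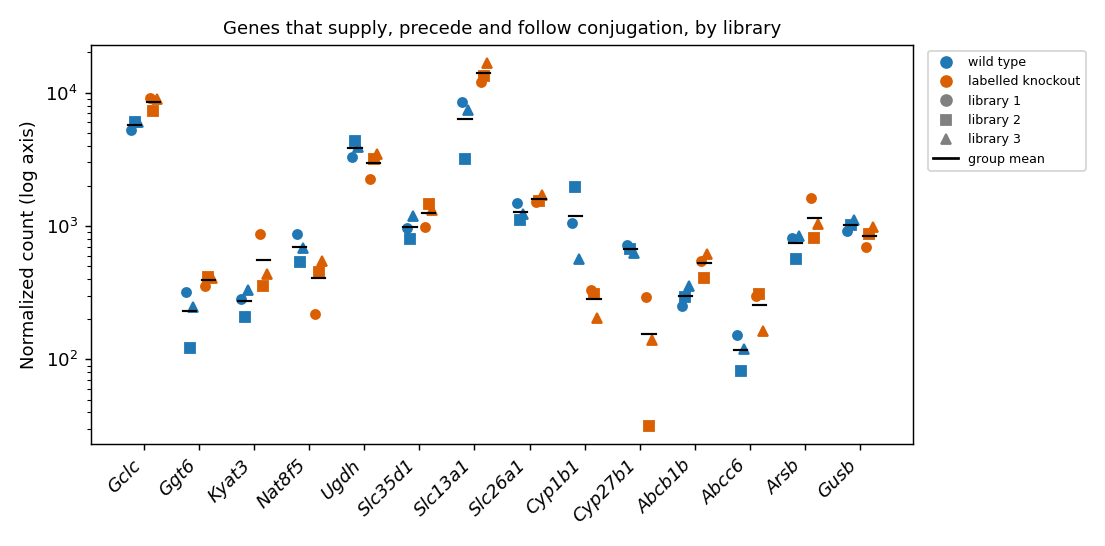
Normalized counts (y axis, log scale) of the 2 genes with the smallest p of each of 7 pathway lists (x axis) in each library; colours, symbols and bars as in the plot of GST genes. Gclc and Slc13a1 are higher and Cyp1b1 and Cyp27b1 lower in every labelled-knockout library.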

How the data were processed

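Each deposited file lists a signal for every gene: read counts scaled by the authors with a single size factor for each library. This was read from the values, since 100% of them were whole multiples of a library's own step within 0.001 reads, and the multiples were taken as reads. The build is mm10, per the submitters' processing notes; the sources used here do not give the aligner, the counting, the use of strand or the annotation release. Other deposited columns, such as gene length in bases, were used as listed. No batch is named in the labels. The main test was limma 3.58.1 (trend, robust) on log2(normalized count + 1) for genes with a mean of at least 1, adjusted by Benjamini and Hochberg over 21721 genes. On this scale fold changes of low genes are understated. The edgeR 4.0.16 quasi-likelihood test, which called 1 gene, and DESeq2 1.42.0 (R 4.3.3) on recovered reads were alternatives, with other pseudocounts, filters, TMM scaling, a replicate block and each library left out. The tests were tried on simulated data first. The members and lists were chosen with earlier results of these data known. Members were named with their values if among the 3 highest means of a family (cytosolic and kappa GST, microsomal GST, UGT1, UGT2 with UGT3, SULT) or at an unadjusted p under 0.05; up to 3 genes of smallest p were named from each pathway list, of which 1 gene is not reported here. Shared stretches were found with BLAST against GENCODE M21 transcripts (at least 100 bases, 95% identity), in 23 of 51 members. Of the 51 members, 47 had the same start and end in that annotation.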

Additional observations from a re-analysis of the deposited data

How the results depend on the processing

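No member was called by limma under any other pseudocount, filter or scaling, with the replicate block or with 1 library left out (0 to 0), nor by edgeR, while DESeq2 called 2. Over all genes limma called 1 gene, 5 with a pseudocount of 5, 5 without a filter, 4 with TMM scaling and 16 with the replicate block, DESeq2 called 316, and 1 to 6 were called with 1 library left out, 6 without labelled-knockout library 1 and 3 without library 3. Same-numbered libraries did not deviate together (correlations 0.067, -0.148 and 0.122 over 12841 genes), and WT library 1 correlated best with labelled-knockout library 2 (0.204), so the block is only a shared number; it called 0 members. At an unadjusted p under 0.05 there were 8 members lower, 5 with edgeR and with DESeq2, and 3 to 8 with 1 library left out: 3 without WT library 1, 3 without WT library 2 and 4 without WT library 3. There was 1 member higher, and 2 with a pseudocount of 0.1, a minimum mean of 10, edgeR or DESeq2, and 0 to 2 with 1 library left out, as given above. Counts at an unadjusted p, and medians of classes and lists, were added after the data had been seen. For 23 named members, 297 of 317 alternative values kept direction and side of the threshold, and Gsta2 and Gsta4 passed with DESeq2 alone. The sign changed for 7 of them. Sult1d1 was at 0.024 with edgeR and 0.027 with DESeq2, and Ugt1a7c at -0.015 with TMM, -0.011 with edgeR and -0.010 with DESeq2. With 1 library left out, Sult1d1 ran from -0.54 to 0.29, Ugt1a2 from -0.41 to 1.27, Ugt1a7c from -0.20 to 0.12, Ugt2b38 from -0.087 to 0.64, Gstm1 from -0.23 to 0.22, Gstm5 from -0.52 to 0.18 and Mgst1 from -0.22 to 0.22. The cause was not tested. The median SE of a member's log2 fold change was 0.46, and 0.35 at a mean of at least 50.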
